A study of Mus musculus with 16 samples.

Results

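The miR-29 family was followed through 4 mature miRNAs of the deposited table: mmu-miR-29a-3p, mmu-miR-29b-3p, mmu-miR-29c-3p and mmu-miR-29c-5p. They were taken by name, 4 of the 1907 miRNAs listed, and all 4 passed the filter on low values, among 325 miRNAs tested. miR-29c-5p passed it through the normal libraries alone, with 7 normal and 0 bleomycin libraries at the 10 CPM required (CPM is the reads of a miRNA scaled to a common total of miRNA reads per library). The miRNAs were sequenced from extracellular vesicles, small membrane particles shed by cells, recovered from mouse bronchoalveolar lavage fluid, the saline wash of the airspaces. C57BL/6 wild-type mice and Sdc1-/- mice were compared, each either normal, which were controls given PBS, or given bleomycin for 21 days. Sdc1 encodes syndecan-1, a heparan sulfate proteoglycan of epithelial surfaces, and bleomycin is a drug used to injure the lung and model fibrosis. Each combination of genotype and treatment made up 1 of 4 groups, with 4 libraries in each. The labels give neither the age or sex of the mice nor the extent of the Sdc1 deletion, and Sdc1 itself cannot be checked in a table of miRNAs. They also do not say that each library came from a separate mouse, so the p-values measure only the spread between these libraries.

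A miRNA is cut from a hairpin precursor that can release a mature strand from either side, the 5p and the 3p arm. Usually the abundant guide strand is kept in the silencing complex, where bases 2 to 8, the seed, pair with target mRNAs and lower their output. The 3p arms of miR-29 are known as repressors of extracellular matrix genes, among them collagens, elastin and fibrillin, and in fibrotic lung, heart and kidney tissue lower miR-29 has been reported together with higher collagen. What a vesicle carries need not follow what its source cell holds, and the values below are of vesicle RNA.

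The mature sequences show which members share a seed and which do not. They were read from RefSeq (GRCm38.p6), 5′ to 3′, with the seed in capitals.
mmu-miR-29a-3p: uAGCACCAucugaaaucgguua
mmu-miR-29b-3p: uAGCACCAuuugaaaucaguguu
mmu-miR-29c-3p: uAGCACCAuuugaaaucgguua
mmu-miR-29c-5p: uGACCGAUuucuccugguguuc

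The 3 guide arms held the same seed, and no other of 1679 mouse mature sequences in the RefSeq table held it. Positions count from 1 at the 5′ end and name the base of the first miRNA first. miR-29a-3p and miR-29c-3p differed at a single base, C10U, with 21 of 22 bases the same. From miR-29a-3p to miR-29b-3p there were 4 changes, C10U, G18A, U21G and A22U, and miR-29b-3p ran 1 base longer at its 3′ end. miR-29c-3p also differed from miR-29b-3p at 3 positions, A18G, G21U and U22A read from miR-29b-3p. Reads that end before base 18 cannot tell miR-29b-3p from miR-29c-3p. Only base 10 tells miR-29a-3p from miR-29c-3p, so an error or an allowed mismatch there could place a read with the wrong one. No source used here names the counting tool or the mismatches it allowed. How far such reads add to the levels and ratios of miR-29c-3p, far rarer than miR-29a-3p, was not tested. The seed of miR-29c-5p was held by no other mature sequence.

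Short motifs that have been tied to the sorting or placement of miRNAs were searched on the mature strand. AGUGUU, which in human cells was described as the nuclear import signal of miR-29b, was in miR-29b-3p and in none of the other 3 members. It stood in 5 of the 280 tested miRNAs that have a sequence in the table, which is 1.79%. GGAG and CCCU, described as vesicle-sorting motifs in human T cells, were in 8.21% and 7.14% of those 280 and in none of the members. A match or its absence describes these letters only.

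The members come from 4 hairpins in a pair of clusters. On chromosome 6, minus strand, Mir29a lay at chr6:31062660-31062747 and Mir29b-1 at chr6:31063023-31063093, with 275 bases between them. On chromosome 1, plus strand, Mir29b-2 lay at chr1:195037040-195037120 and Mir29c at chr1:195037547-195037634, with 426 bases between them. In the GENCODE annotation the whole of both chromosome 1 hairpins lay in an exon of the non-coding transcript A330023F24Rik on the same strand, and opposite an exon and untranslated region of Cd46 on the other strand. Mir29b-1 overlapped the lincRNA Gm27019 by 2 bases on the same strand, and Mir29a overlapped no other gene. The 2 hairpins whose 5p arms carry the clearest differences below are shown here with the mature arms in capitals, the 5p arm first.
Mir29c: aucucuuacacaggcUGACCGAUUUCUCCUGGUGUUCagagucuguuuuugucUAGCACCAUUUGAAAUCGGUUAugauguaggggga
Mir29b-1: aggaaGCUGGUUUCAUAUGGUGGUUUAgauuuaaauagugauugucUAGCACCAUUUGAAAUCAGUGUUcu
The mature miR-29b-3p is the same from Mir29b-1 and Mir29b-2, so its reads cannot be divided between the clusters.

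Depth ran from 1094908 to 12837837 miRNA reads per library, so 1 read was worth 0.913 CPM in the shallowest library and 0.0779 CPM in the deepest. Mean depth was lower in the bleomycin groups, 4118013 reads in wild type and 5004907 in knockout, than in the normal groups, 5344427 and 9366221. A CPM is a share of the miRNA reads of a library. In such bulk samples, fewer vesicles of one cellular source and less of a miRNA per vesicle cannot be told apart. Marker miRNAs of 5 cell types were all present: no marker was at 0 in every library of a group.

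miR-29a-3p made up nearly all of the family. It ranked 27th of the listed miRNAs by mean CPM and took between 97.3 and 99.2% of the summed reads of the 3 guide arms in every library. miR-29b-3p, the member with the nuclear import motif, ranked 193rd at a mean of 45.7 CPM. miR-29c-3p ranked 248th at 21.0 CPM and miR-29c-5p, the other arm of its hairpin, 296th at 9.92 CPM. The 3 guide arms together took 0.600% ± 0.130 (SD, n = 4) of reads in normal wild type and 0.566% ± 0.0545 in normal knockout. After bleomycin they took 0.347% ± 0.296 in wild type and 0.355% ± 0.190 in knockout.

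**Figure D1:**
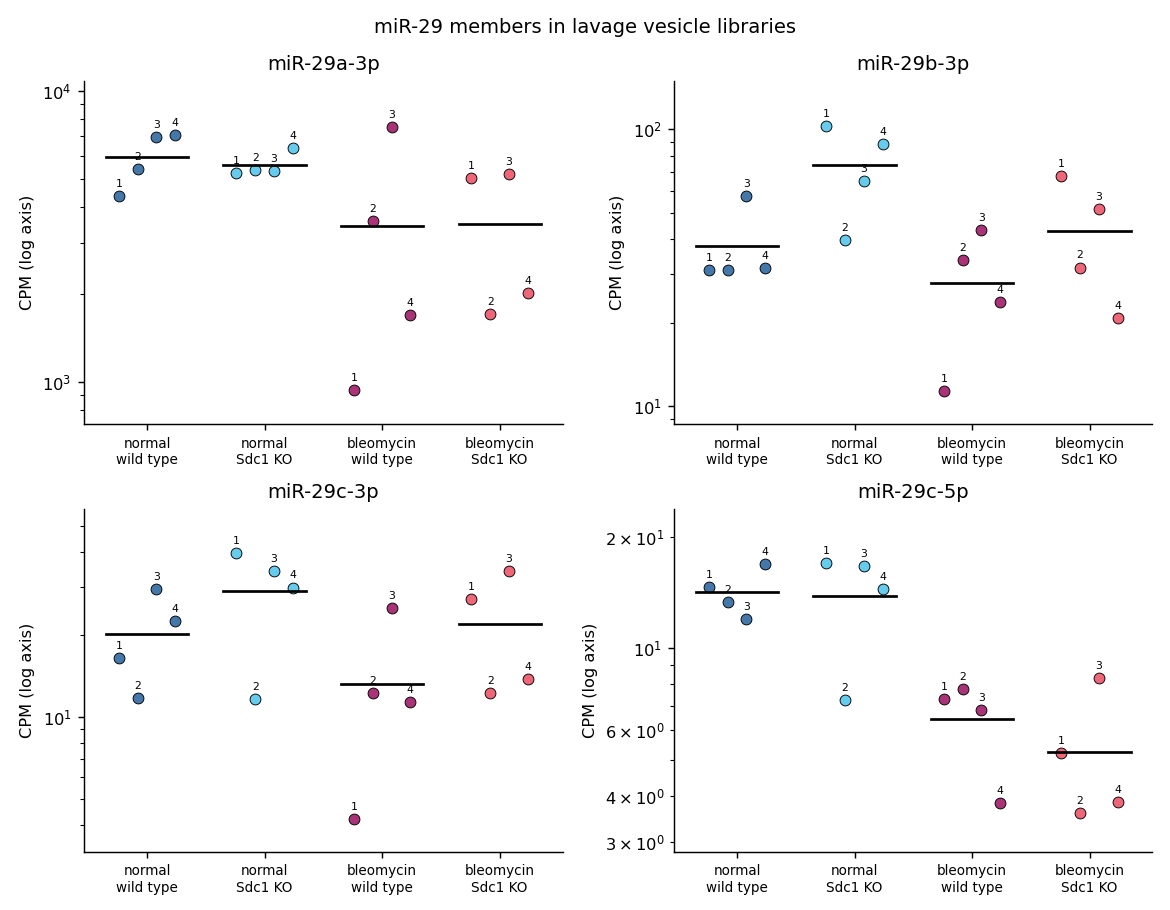
CPM of the 4 miR-29 members in each of the 16 libraries, on log axes, with the replicate number above each point and the group mean as a line. miR-29c-5p was lower in every bleomycin wild-type library than in any normal wild-type library, while miR-29a-3p spread from 934 to 7513 CPM in bleomycin wild type.

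After bleomycin, miR-29a-3p had lower means in both genotypes and a wider spread between libraries. In normal wild type its 4 libraries held 4358, 5418, 6939 and 7040 CPM. In bleomycin wild type they held 934, 3578, 7513 and 1700 CPM, so that 3 of 4 lay below every normal library and replicate 3 lay above all of them. The means were 5939 ± 1289 and 3431 ± 2939 CPM (SD, n = 4 each).

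The normal knockout libraries held 5221, 5354, 5305 and 6361 CPM of miR-29a-3p, and the bleomycin knockout libraries 5025, 1708, 5181 and 2021 CPM. Here all 4 bleomycin libraries lay below the lowest normal library, a pair of them just below it and the other pair far below. The means were 5560 ± 537 and 3484 ± 1875 CPM (SD, n = 4 each).

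Changes were tested with limma on log2(CPM + 5) over the 325 miRNAs, and a miRNA was called where its Benjamini-Hochberg adjusted p was under 0.05. In wild type 34.5% of the tested miRNAs were called between bleomycin and normal, made up of 20% higher and 14.5% lower. In knockout 23.4% were called, 14.8% higher and 8.62% lower. The median log2 fold change of all tested miRNAs was -0.0045 in wild type and 0.11 in knockout. Against this background 1 of the 4 members, miR-29c-5p, was called in each genotype, and it was lower. It passed the filter through normal libraries alone, which favours a lower call. With no filter limma called 0 members in wild type and 1 in knockout, where 6.63% and 6.7% of all miRNAs were called. With both genotypes averaged, 45.8% of all tested miRNAs and 2 of the 4 members were called. These were miR-29a-3p and miR-29c-5p, both lower, where 23.7% of all were called higher and 22.2% lower.

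miR-29a-3p did not pass within either genotype. Its log2 fold change was -1.19 (SE 0.53, limma adjusted p = 0.0888) in wild type and -0.85 (SE 0.53, limma adjusted p = 0.259) in knockout. Averaged over genotypes it fell by 1.02 (SE 0.37, limma adjusted p = 0.0326), with 5 of 8 bleomycin libraries below the lowest of the 8 normal ones and 1 above the highest. That averaged call was lost when any 1 of 7 libraries was left out: normal wild-type replicate 3 or 4, normal knockout 4, bleomycin wild-type 1 or 4, and bleomycin knockout 2 or 4, with adjusted p up to 0.0733. Without bleomycin wild-type replicate 3 the wild-type value was -1.70 and was called (adjusted p = 0.0083), and without replicate 1 it was -0.70 (adjusted p = 0.275).

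Whether miR-29a-3p was called depended on what each library was scaled to. miR-21a-5p, a miRNA widely reported as raised in fibrotic lung, took 39051 ± 17223 CPM in normal wild type and 253808 ± 79235 CPM in bleomycin wild type, and 39631 ± 9689 and 264661 ± 61671 CPM in the knockout groups (SD, n = 4 each). With CPM recomputed over the total without miR-21a-5p, the averaged difference of miR-29a-3p was -0.64 and was not called (adjusted p = 0.129). That total moves the averaged median of all tested miRNAs from 0.049 to 0.40.

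Median-of-ratios scaling sets each library by its typical miRNA. The size factors were 0.908 to 1.05 in the normal libraries and 0.688 to 1.56 in the bleomycin libraries. After scaling, the normal wild-type libraries held 4380, 5180, 7309 and 7757 and the bleomycin wild-type libraries 1358, 3113, 4801 and 2377 scaled CPM of miR-29a-3p. Replicate 3 then no longer exceeded the normal libraries, though it still overlapped them. The wild-type difference was -1.18 (SE 0.37) and was called (limma adjusted p = 0.0194), as were 39.4% of all tested miRNAs. Without scaling it was -1.19 (SE 0.53). The normal knockout libraries held 5028, 5514, 5331 and 6791 scaled CPM and the bleomycin knockout libraries 3893, 2048, 3861 and 2081. In knockout 1 of the 4 members was called under this scaling, with 27.4% of all tested miRNAs.

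**Figure D2:**
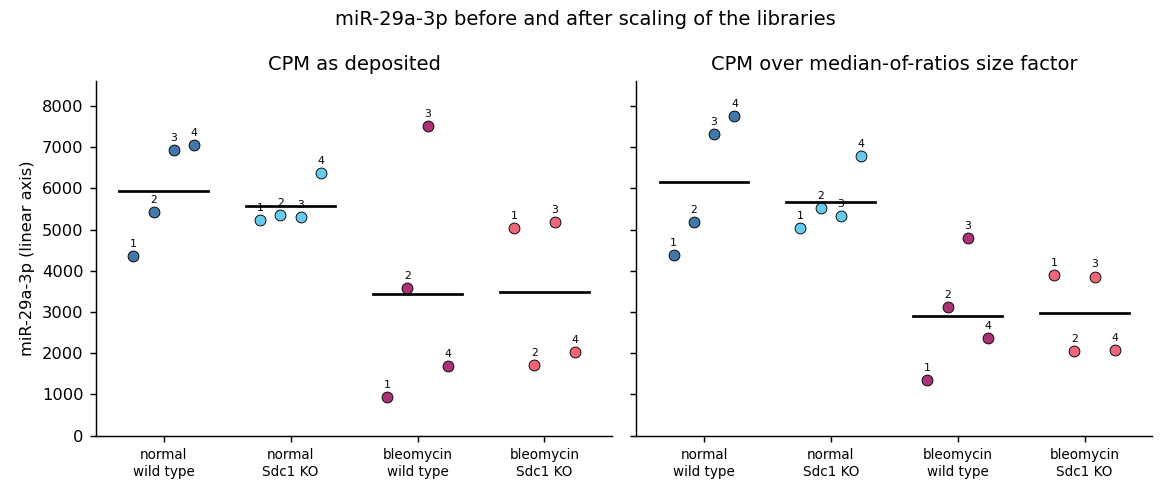
miR-29a-3p in each library as deposited (left, CPM) and after division by the median-of-ratios size factor of the library (right, scaled CPM), on linear axes from 0, with replicate numbers and group means. Bleomycin wild-type replicate 3 moved from 7513 CPM, above every normal library, to 4801 scaled CPM.

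miR-29b-3p and miR-29c-3p, which carry the same seed at far lower levels, did not pass after bleomycin in either genotype or averaged. miR-29b-3p was at 31.1, 30.9, 57.5 and 31.5 CPM in normal wild type and at 11.3, 33.6, 43.1 and 23.7 CPM in bleomycin wild type. In normal knockout it was at 103, 40.0, 64.9 and 88.6 CPM, and in bleomycin knockout at 67.8, 31.7, 51.4 and 20.8 CPM. The groups overlapped in both genotypes, with 2 of 4 bleomycin libraries below the lowest normal one in each. The log2 fold change was -0.44 in wild type (SE 0.41, adjusted p = 0.442) and -0.76 in knockout (SE 0.41, adjusted p = 0.205), both by limma. The averaged value was -0.60 (95% interval -1.21 to 0.015, adjusted p = 0.103), and edgeR on the recovered reads called it (adjusted p = 0.0406) with 54.5% of all tested miRNAs.

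miR-29c-3p was at 16.4, 11.7, 29.5 and 22.5 CPM in normal wild type and at 4.21, 12.2, 25.0 and 11.3 CPM in bleomycin wild type. In knockout it was at 39.8, 11.6, 34.2 and 29.8 CPM in the normal libraries and at 27.0, 12.2, 34.3 and 13.8 CPM after bleomycin. In wild type 2 of 4 bleomycin libraries lay below the lowest normal one, and in knockout all 4 lay within the normal range. The log2 fold change was -0.53 in wild type (SE 0.41, adjusted p = 0.343) and -0.33 in knockout (SE 0.41, adjusted p = 0.602), both by limma. The 3 normal libraries with the fewest reads, wild-type replicates 1 and 2 and knockout replicate 2, held 11.6 to 16.4 CPM of miR-29c-3p, and the 5 deeper normal libraries 22.5 to 39.8 CPM. The part of depth in the level of miR-29c-3p was not tested.

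miR-29c-5p, the arm opposite miR-29c-3p with a seed of its own, was lower after bleomycin. The normal wild-type libraries held 14.6, 13.3, 12.03 and 16.9 CPM, and the bleomycin wild-type libraries 7.31, 7.77, 6.81 and 3.83 CPM, with no overlap. The means were 14.2 ± 2.06 and 6.43 ± 1.78 CPM (SD, n = 4 each).

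In knockout miR-29c-5p was at 16.9, 7.26, 16.7 and 14.5 CPM in the normal libraries and at 5.22, 3.59, 8.29 and 3.84 CPM after bleomycin. Normal replicate 2, among the shallow libraries, fell within the bleomycin range, and 3 of the 4 bleomycin libraries lay below it. The means were 13.8 ± 4.52 and 5.23 ± 2.16 CPM (SD, n = 4 each).

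The level of miR-29c-5p fell by 0.76 on the log2 scale in wild type (SE 0.25, limma adjusted p = 0.0250) and by 0.86 in knockout (SE 0.25, limma adjusted p = 0.0176). These are differences of log2(CPM + 5), and near 10 CPM the added 5 shrinks them. In CPM the normal mean was 2.21 times the bleomycin mean in wild type and 2.64 times in knockout. Summed over the 4 libraries, 305 reads in normal and 96 in bleomycin wild type gave a ratio of shares of 2.45 (exact 95% interval 1.94 to 3.11). In knockout 581 and 99 reads gave 3.14 (2.53 to 3.92). These intervals cover counting error only, not the spread between libraries.

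Because miR-29c-5p entered the test through its normal libraries, it was also tested with no filter, over 1358 miRNAs. The adjusted p from limma was then 0.0513 in wild type and 0.0255 in knockout, where 6.63% and 6.7% of all miRNAs were called. A filter on the mean of all libraries, which does not favour either group, gave 0.0248 and 0.0171. With CPM recomputed without miR-21a-5p in the total, miR-29c-5p was at -0.55 in wild type (adjusted p = 0.0964) and -0.68 in knockout (adjusted p = 0.0498). The wild-type call also ended with only the 8 wild-type libraries fitted (adjusted p = 0.0716) and without the 3 shallow normal libraries (adjusted p = 0.0744). Single libraries also decided the call. It was lost in wild type without normal replicate 1, 2 or 4 or bleomycin replicate 4 (adjusted p 0.056 to 0.0904). It was lost in knockout without normal replicate 1 or 3 or bleomycin replicate 2 or 4 (adjusted p 0.0501 to 0.0573). Averaged over genotypes miR-29c-5p fell by 0.81 (SE 0.18, limma adjusted p = 0.00111), and this call held without each of the 16 libraries in turn. Those fits kept the filter of all 16 libraries, so they do not test its selection through normal libraries. Averaged, 1 of the 4 members was called with no filter (12.2% of all miRNAs) and 2 with the filter on the mean (44.7%).

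**Figure D3:**
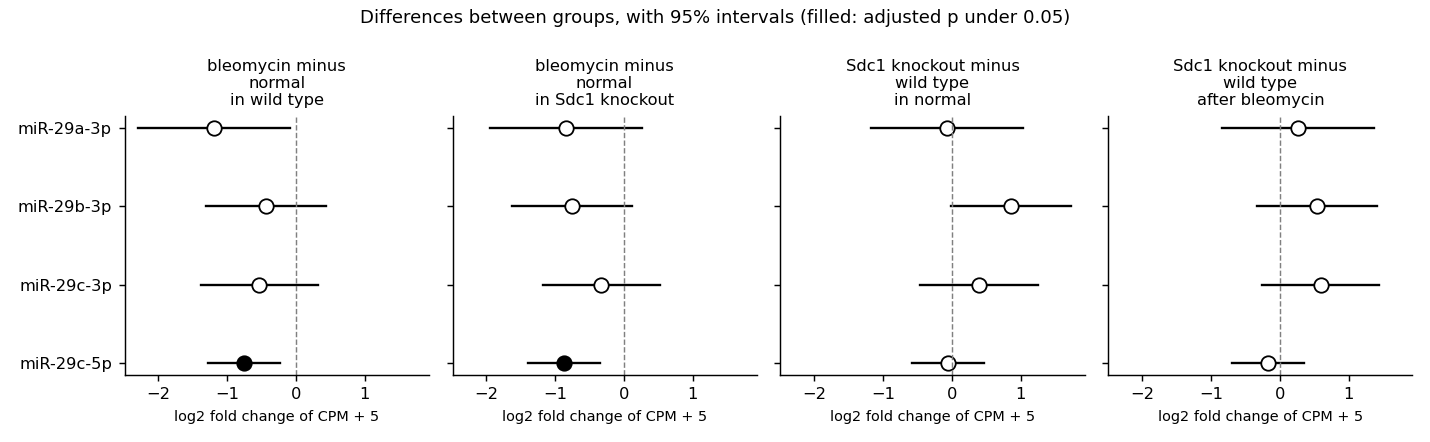
Log2 fold changes of CPM + 5 with 95% intervals from limma for the 4 members in 4 comparisons, 4 libraries per group; filled points have an adjusted p under 0.05 over all 325 tested miRNAs. The points of all 4 members lie below 0 in both bleomycin comparisons, and those of miR-29c-5p, at -0.76 and -0.86, are the filled ones.

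Within the Mir29c hairpin the balance of the arms can be read in each library without reference to its total. The ratio of miR-29c-3p to miR-29c-5p was 1.13, 0.882, 2.45 and 1.34 in normal wild type and 0.576, 1.57, 3.67 and 2.96 in bleomycin wild type. These overlapped, and the lowest and the highest of the 8 were both bleomycin libraries. In normal knockout the ratio was 2.35, 1.60, 2.05 and 2.06, and in bleomycin knockout 5.17, 3.39, 4.14 and 3.59, with no overlap. These ratios rest on few reads of miR-29c-5p, 17 to 36 in each bleomycin knockout library and 20 in normal knockout replicate 2. On the log2 scale the knockout ratio was 1.01 higher after bleomycin, and 0.53 higher when 5 CPM was added to both arms. With 5 CPM added the knockout groups overlapped, and 3 of 4 bleomycin libraries lay above every normal one. No p is given for these ratios. The ratios of miR-29b-3p and of miR-29c-3p to miR-29a-3p overlapped between the groups in every comparison.

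Relative to miR-29a-3p, miR-29b-3p had a higher mean in normal knockout than in normal wild type. The ratio of miR-29b-3p to miR-29a-3p averaged 0.0064 ± 0.0017 in normal wild type and 0.0133 ± 0.0051 in normal knockout (SD, n = 4 each). Of the 4 normal knockout libraries 3 lay above the highest wild-type one, and replicate 2, a shallow library, at 0.0075, lay within the wild-type range. After bleomycin the ratio averaged 0.0103 ± 0.0036 in wild type and 0.0131 ± 0.0040 in knockout, and these overlapped. The ratio of miR-29c-3p to miR-29a-3p ran from 0.0022 to 0.0042 in normal wild type and from 0.0022 to 0.0076 in normal knockout.

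**Figure D4:**
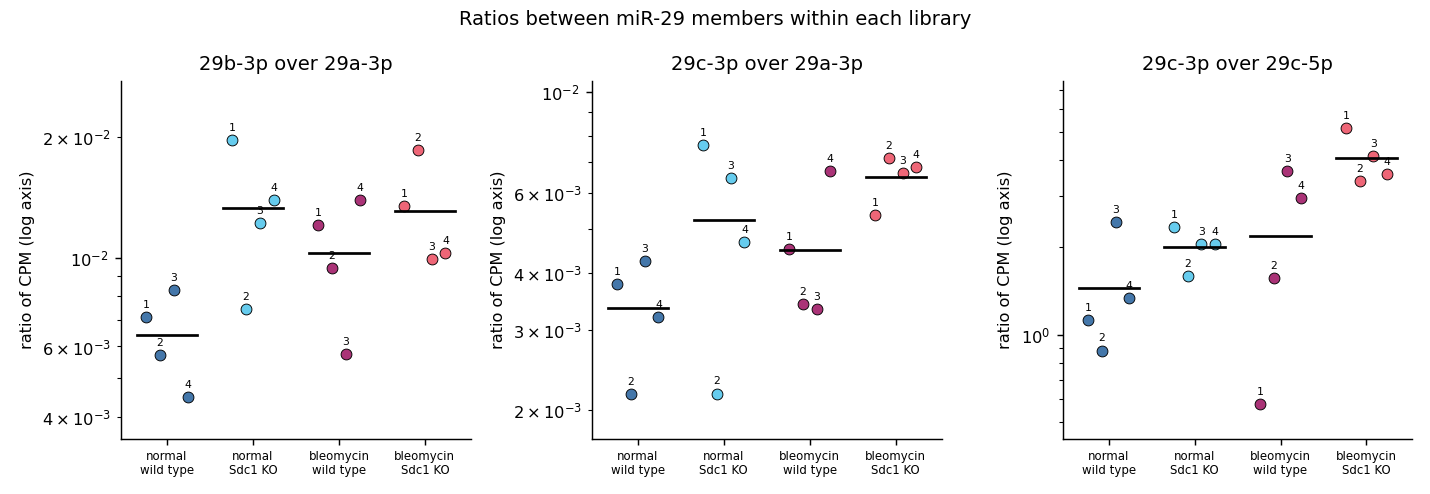
Ratios of CPM between members within each library, on log axes, with replicate numbers and the mean ratio of each group as a line. In the right panel the bleomycin knockout libraries, 3.39 to 5.17, lie above the normal knockout libraries, 1.60 to 2.35.

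No member was called between genotypes by the main limma fit or by edgeR. Array weights in limma, given below, called 2 in normal mice and 2 averaged over conditions. In normal mice limma called 0 of 325 miRNAs, 0% as background, with 58 at an unadjusted p under 0.05, and edgeR called 0 with 67. After bleomycin 2 miRNAs, 0.615%, were called and neither was a member; edgeR called 0. Averaged over conditions limma called 0%, with 67 miRNAs at an unadjusted p under 0.05, and edgeR called 0 with 79. These background counts rest on a single library: without normal knockout replicate 2, limma called 64 of 325 miRNAs (19.7%) in normal mice and 37 (11.4%) averaged over conditions. No member was among them, and miR-29b-3p was then 1.104 higher on the log2 scale in normal knockout (adjusted p = 0.0749). edgeR with no filter called 25 of 1358 miRNAs (1.84%) in normal mice, and 0 members.

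miR-29b-3p had the highest genotype difference of the members in normal mice. Its mean was 37.7 ± 13.2 CPM in normal wild type and 74.1 ± 27.7 CPM in normal knockout (SD, n = 4 each), with 3 of 4 knockout libraries above every wild-type one. The log2 fold change was 0.86 (95% interval -0.013 to 1.73, limma adjusted p = 0.266) in normal mice. After bleomycin it was 0.54 (interval -0.33 to 1.41, adjusted p = 0.723), with means of 27.9 ± 13.6 and 42.9 ± 20.9 CPM. Averaged over conditions the difference was 0.70 (adjusted p = 0.215), with an unadjusted p of 0.0283 by limma.

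miR-29c-3p differed by 0.39 in normal mice (interval -0.46 to 1.25) and by 0.60 after bleomycin (interval -0.26 to 1.45), knockout minus wild type. miR-29a-3p differed by -0.073 (interval -1.18 to 1.03) and 0.27 (interval -0.84 to 1.37), and miR-29c-5p by -0.059 (interval -0.58 to 0.47) and -0.17 (interval -0.69 to 0.36). For miR-29a-3p in normal mice the interval spans a 2-fold difference in either direction. With limma array weights, which count variable libraries for less, miR-29b-3p (1.20, adjusted p = 0.00152) and miR-29c-3p (0.97, adjusted p = 0.00425) were called higher in normal knockout. Under those weights 58.8% of all tested miRNAs were called in that comparison.

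The response to bleomycin was not called as different between genotypes for any member. The interaction was 0.34 for miR-29a-3p (95% interval -1.22 to 1.90), -0.32 for miR-29b-3p (-1.55 to 0.91), 0.20 for miR-29c-3p (-1.0 to 1.41) and -0.11 for miR-29c-5p (-0.85 to 0.63), as log2 knockout response minus wild-type response. limma called 0% of the 325 miRNAs, with 24 at an unadjusted p under 0.05, and edgeR called 0 with 30. The comparisons of bleomycin and of genotype share libraries, so their values are set side by side here and not counted as separate support.

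The other arms of the family's hairpins lay under 10 CPM in every library and were not among the tested miRNAs. miR-29b-1-5p, the 5p arm of the Mir29b-1 hairpin shown above, had the lowest bleomycin level relative to normal of all the family's arms. It was at 6.39, 6.26, 4.63 and 7.39 CPM in normal wild type and at 0.665, 1.11, 0.454 and 0.426 CPM in bleomycin wild type. In knockout it was at 3.71, 2.18, 5.53 and 5.27 CPM in normal mice and 0.870, 0.641, 0.230 and 0.452 CPM after bleomycin. All 8 bleomycin libraries lay below all 8 normal ones. The share of all miRNAs whose groups do not overlap in this way was not counted, here or for the members above. The tests of this arm were chosen after the data were seen.

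The reads of miR-29b-1-5p were few, 1 to 5 in each bleomycin library and 6 to 71 in each normal one. Summed, 129 reads against 10 in wild type gave a ratio of shares, normal over bleomycin, of 9.94 (exact 95% interval 5.23 to 21.2, counting error only). In knockout 173 against 11 reads gave 8.40 (4.58 to 17.1). In a limma fit of all 1358 miRNAs above 0, where 2.28% were called lower in wild type and 1.77% in knockout, the change was -0.98 (SE 0.14, adjusted p = 0.000513) and -0.71 (SE 0.14, adjusted p = 0.00599). The added 5 CPM is larger than most of these values, so those folds are strongly shrunk. edgeR on the reads, which called 5.01% and 6.26% of all miRNAs lower, gave -3.23 and -3.30 on the log2 scale (adjusted p = 0.000127 and 7.1e-05). Both calls of miR-29b-1-5p held in limma without each library in turn, with adjusted p up to 0.0193.

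miR-29b-2-5p, the 5p arm of the other miR-29b hairpin, had 89 reads in normal and 20 in bleomycin wild type, a ratio of shares of 3.43 (2.09 to 5.88). In knockout it had 170 and 24 reads, a ratio of 3.79 (2.46 to 6.07). The libraries overlapped in both genotypes: the 3 shallow normal libraries held 0.782 to 1.83 CPM and the other 5 normal libraries 3.38 to 5.45 CPM. limma with no filter did not call it (adjusted p = 0.409 in wild type and 0.212 in knockout), while edgeR called it in knockout (adjusted p = 0.0143). miR-29a-5p, the arm opposite the abundant miR-29a-3p, was at 0 to 2.99 CPM in all libraries and was not called in either genotype. Its shallowest library had 0 reads, where 3 reads would be 2.74 CPM.

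**Figure D5:**
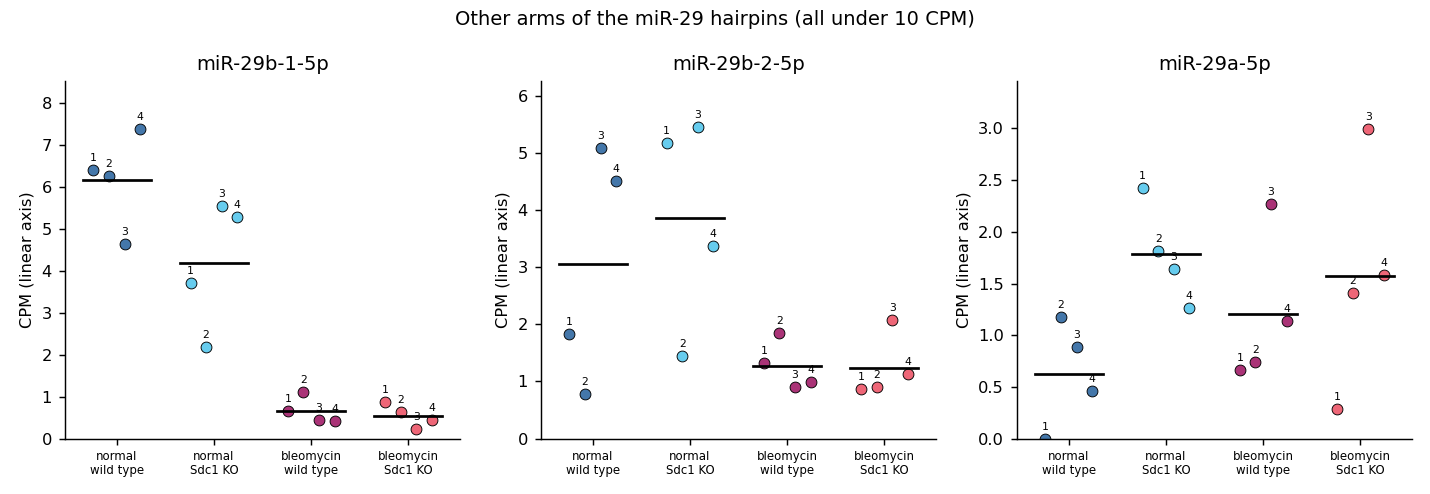
CPM of the 3 untested arms of the miR-29 hairpins in each library, on linear axes from 0, with replicate numbers and group means. miR-29b-1-5p was at 2.18 to 7.39 CPM in the normal libraries and at 0.230 to 1.11 CPM after bleomycin, without overlap.

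The members were set beside other miRNAs reported in lung fibrosis, from lists chosen with earlier results of these data known. Of 16 miRNAs reported to restrain fibrosis, 14 were tested, 0 were called higher and 2 lower after bleomycin in each genotype. Among all tested miRNAs 20% were called higher and 14.5% lower in wild type, and 14.8% and 8.62% in knockout. In wild type the 2 of 14 called lower lay near the share of all. The median below is that of the 14 tested. The median log2 fold change of the restraining list was -0.060 in wild type and -0.085 in knockout, beside -0.0045 and 0.11 for all tested miRNAs. miR-30a-5p fell by 1.68 in wild type and fell by 1.54 in knockout (adjusted p = 0.00191 and 0.00536), and miR-200a-3p, an epithelial miRNA, fell by 2.68 in wild type (adjusted p = 0.000748). The second call in knockout was mmu-miR-26a-5p, named here after its value was seen, which fell by 1.07 (limma adjusted p = 0.0179). Of 8 miRNAs reported to promote fibrosis, 7 were tested, and 4 were called higher and 0 lower in each genotype, with medians of 1.35 and 1.55. These 4 were miR-21a-5p (2.76 and 2.74), miR-199a-5p (3.39 and 1.91), miR-34a-5p (1.62 and 1.62) and miR-155-5p (1.35 and 1.55). Averaged over genotypes 4 of the promoting list were called higher and 1 lower, and 0 and 3 of the restraining list. For all tested miRNAs the averaged shares were 23.7% higher and 22.2% lower.

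Markers of cell types moved in the same comparisons. The 7 epithelial miRNAs, the miR-200 family with miR-205 and miR-375, summed to 59771 to 98883 CPM in normal wild type and 17398 to 53786 CPM in bleomycin wild type, with no overlap, and 4 of 7 were called lower. In knockout they summed to 42208 to 67703 and 34618 to 57855 CPM, and 1 of 7 was called lower. Of 5 mesenchymal miRNAs 3 were called higher in wild type and 1 in knockout, and averaged over genotypes 3 were called higher and 1 lower. The median of their sum was 50718 CPM in normal wild type (36374 to 82520) and 43191 CPM in bleomycin wild type (36136 to 52140). In knockout the medians were 60628 CPM in normal (21553 to 142493) and 39658 CPM after bleomycin (39341 to 46754). Sums of CPM are weighted to the most abundant markers, so they do not describe the rarer ones. Of 5 leukocyte miRNAs 2 were called higher and 1 lower in wild type, and 3 higher in knockout. Of 2 endothelial miRNAs 1 was called higher in wild type and 0 in knockout, and of 4 erythrocyte miRNAs 2 were tested and 1 was called higher in each genotype. Beside these counts, 20% of all tested miRNAs were called higher and 14.5% lower in wild type, and 14.8% and 8.62% in knockout. The part of these markers in the levels of the miR-29 members was not tested.

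The members resembled each other unevenly across the 16 libraries. On log2(CPM + 5) miR-29b-3p and miR-29c-3p had a Pearson r of 0.89 (Spearman rho 0.83), and r was 0.88 after the 4 group means were removed. miR-29a-3p had an r of 0.73 with miR-29b-3p and 0.75 with miR-29c-3p. The 2 arms of Mir29c, miR-29c-3p and miR-29c-5p, had an r of 0.49. These points share library totals, and the values are descriptions over 16 libraries.

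Among the tested miRNAs outside the family, those most like miR-29a-3p were miR-324-3p (r = 0.95), miR-27a-3p (0.93) and miR-872-3p (0.93). For miR-29b-3p they were miR-186-5p (0.89), miR-30b-5p (0.86) and miR-16-5p (0.85), and for miR-29c-3p miR-19b-3p (0.89), miR-30b-5p (0.88) and miR-27a-3p (0.88). For miR-29c-5p they were miR-664-3p (0.90), miR-30c-5p (0.85) and miR-6516-5p (0.85). With group means removed the r of miR-29a-3p with miR-324-3p was 0.96, while that of miR-29c-5p with miR-6516-5p was 0.14.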

How the data were processed

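Small RNA of lavage vesicles was sequenced in 16 libraries. The authors deposited 1 table of CPM for 1907 mouse miRNAs, 1358 of them above 0. The submitters' processing notes name Bowtie2 2.2.3 and GRCh38, a human build, with no role, and the table holds no coordinates. No source used here names the trimming, the counting tool or the miRNA annotation. Dividing each deposited CPM by the lowest value of its library gave whole numbers (100% within 0.001), which were taken as reads. Amplified reads are not independent molecules, so intervals on reads cover counting error only.

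All 16 columns matched a sample title, which gave its group. Tested were those that reached 10 CPM in 4 or more libraries. limma 3.58.1 (R 4.3.3; lmFit, contrasts.fit, eBayes with a trend) was run on log2(CPM + 5) with a mean for each of 4 groups (12 residual degrees of freedom), in 7 comparisons, with Benjamini-Hochberg adjustment in each at 0.05. An alternative was the quasi-likelihood test of edgeR 4.0.16 on those reads. The code was tested on simulated data. Ratios of pooled reads carry exact binomial 95% intervals. Sequences and hairpin positions came from RefSeq (GRCm38.p6), and 1623 of 1907 names matched; overlapping genes came from GENCODE M21 on GRCm38.

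Named miRNAs were the 4 members, the other arms of their hairpins, for each member the 3 miRNAs with the highest Pearson r, miR-21a-5p, and up to 4 per list with the smallest p in wild type. The members and lists were chosen with earlier results of these data known. Alternatives were pseudocounts of 1 and 20, other filters, median-of-ratios and quantile scaling, CPM without miR-21a-5p, only the 8 libraries compared, log2 reads as a covariate, the replicate number as a block, array weights, leaving out the 3 normal libraries with the fewest reads, and leaving out each library. A filter on a mean of 5 CPM, edgeR with no filter and the tests of the untested arms were chosen after seeing the data.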

Additional observations from a re-analysis of the deposited data

Results flagged for a closer look

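In normal knockout, miR-29a-3p of replicate 4 stood apart at 6361 CPM, beside 5221 to 5354 CPM in the other three, with a gap of 0.884 of the group's range. The summed guide arms of the same library stood apart likewise, at 6480 CPM with a gap of 0.963 of the range, and since miR-29a-3p makes up nearly all of that sum, this is the same observation. In normal wild type, miR-29b-3p of replicate 3 stood apart at 57.5 CPM, beside 30.9 to 31.5 CPM in the other three, with a gap of 0.977 of the range. Chance alone sets a library apart in this way in about 1 in 20 groups. No difference between the genotypes' responses was found for a member by the interaction test.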

How the results depend on the processing

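Members called lower after bleomycin in wild type numbered 1, and 0 with no filter, a filter of 100 CPM, CPM without miR-21a-5p, only the 8 libraries compared, without the 3 shallowest normal libraries, or in edgeR with no filter, where 6.63, 34.5, 36.7, 26.2, 20.6 and 12.7% of all tested miRNAs were called in that order. They numbered 2 with median-of-ratios scaling (39.4% of all tested miRNAs called, beside 34.5%) or edgeR (42.2%), and 0 to 2 when each library was left out. In knockout they numbered 1, 0 with a filter of 100 CPM, 2 with quantile normalization (25.2% of all called, beside 23.4%) or array weights (57.5%), and 0 to 1 when each library was left out. Averaged over genotypes they numbered 2, 1 with no filter, a filter of 100 CPM, CPM without miR-21a-5p or without the 3 shallow normal libraries (12.2, 46.6, 50 and 37.2% of all called, in that order), 3 with median-of-ratios scaling (51.1% of all called, beside 45.8%), quantile normalization (47.7%) or edgeR (54.5%), 4 in edgeR with no filter (20%), and 1 to 2 when each library was left out. The filter of 100 CPM removes all members but miR-29a-3p, and in knockout 21.8% of all miRNAs it kept were called. When each library was left out, 22.8 to 41.2% of all tested miRNAs were called in wild type and 17.5 to 26.2% in knockout. Averaged over genotypes that share ran from 38.8 to 50.5%. Array weights called 2 members between genotypes in normal mice (58.8% of all) and 2 averaged over conditions (36.6%), where the other fits called 0. The log2 ratio of miR-29c-3p to miR-29c-5p in knockout was 0.53 higher after bleomycin with 5 CPM added, and 1.01 without. The cause of these changes was not tested.

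All directions after bleomycin of the 4 members were kept under every alternative. Uncalled differences that changed sign were, knockout minus wild type in normal mice, miR-29a-3p at 0.085 with log2 reads as a covariate and 0.065 in edgeR with no filter, against -0.073, and miR-29c-5p at 0.16 with array weights, 0.12 without the 3 shallow libraries and 0.21 in edgeR with no filter, against -0.059. Averaged over conditions they were miR-29a-3p at -0.026 in edgeR and -0.025 without the 3 shallow libraries, against 0.097, and miR-29c-5p at 0.051 with array weights, against -0.11. The interaction of miR-29c-3p was -0.052 with array weights, against 0.20. Leaving out single libraries gave ranges of -0.21 to 0.018 for miR-29a-3p and -0.14 to 0.14 for miR-29c-5p in normal mice, and -0.22 to 0.79 for miR-29a-3p after bleomycin. It gave -0.14 to 0.86 for the interaction of miR-29a-3p, -0.11 to 0.48 for that of miR-29c-3p and -0.14 to 0.36 for the averaged genotype difference of miR-29a-3p. miR-29a-5p in knockout was 0.036 after bleomycin with CPM without miR-21a-5p, against -0.059, and leaving out single libraries gave -0.16 to 0.040, or -0.011 to 0.088 averaged over genotypes.

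With the replicate number as a block no call of a member changed, and the adjusted p of miR-29c-5p was 0.0337 in wild type, 0.0253 in knockout and 0.00224 averaged, and that of miR-29a-3p 0.0855 in wild type and 0.0314 averaged. The numbers gave no sign of pairing the libraries: 9 of 24 same-numbered pairs had deviations correlated above 0.1, beside 30 of 72 other pairs. The median r was -0.035 and -0.022, with ranges of -0.63 to 0.80 and -0.79 to 0.70. With 4 libraries a group these correlations cannot exclude pairing. Depth limits the 5p arms most, where bleomycin libraries held as few as 1 read.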
